A study of Mus musculus with 4 samples.

Results

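The loci described here are 483 rows of an expression table of mouse erythroleukemia (MEL) cells that carried no gene symbol, spanned 1 kb or more of the genome and reached 1 FPKM in at least 2 of 4 samples. FPKM counts sequenced fragments per kilobase of transcript relative to all fragments mapped in that library. The loci were chosen by their span and by their FPKM in these same 4 samples, so their levels are a description. The table held 47935 rows, of which 4125 had no symbol. Of the rows without a symbol 1665 spanned at least 1000 bp, and 1182 of these did not meet the FPKM rule. The shortest span kept was 1000 bp and the longest left out was 998 bp. On the expression rule, the second-highest of a row's values was at least 1 FPKM in every locus kept, 53 loci lay between 1 and 1.1 FPKM, and 70 rows between 0.9 and 1 FPKM were left out, the highest at 0.99 FPKM.

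MEL cells are a mouse leukemia line of the red cell lineage that is arrested before haemoglobin synthesis. The study sequenced RNA depleted of ribosomal RNA from 2 uninduced samples and 2 samples induced with 1.5% dimethyl sulfoxide (DMSO), a solvent that sets off red cell maturation in this line. The comparison asked how transcript levels differ between both states, and the sources used here do not say how long DMSO was applied. The titles number the replicates 1 and 2 within a group and nothing says that they came from separate cultures, so p-values measure the spread between these samples.

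Transcript assemblers join overlapping fragments into loci, and a locus that matches no annotated gene is left without a symbol. Such rows can hold long noncoding RNAs, transcripts of enhancers, read-through beyond the end of a gene, extended untranslated regions and introns of unspliced RNA, and libraries depleted of ribosomal RNA keep more of these than libraries selected for poly(A) tails. Red cell maturation is known for the strong induction of globin and haem synthesis genes while transcription of many other genes declines.

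The rows have no name of their own, but 89 of them lay between GENCODE genes and overlapped a gene of RefSeq, a second annotation of the mouse genome. RefSeq long noncoding RNAs that start inside an unannotated locus lend it a name. The promoter windows of these RNAs are shown for the loci that changed most. Shown are those for the 3 loci with the largest rise and the 3 with the largest fall in induced samples among loci past the test threshold, apart from rows with a symbol and with a RefSeq start whose symbol the table lacks. Of these 6 loci, XLOC_017773 and XLOC_003885 also overlapped GENCODE exons and the other 4 lay between GENCODE genes. Each window runs from 250 bases before to 50 bases after a RefSeq transcript start, 5′ to 3′ on the strand of the gene, from RefSeq on GRCm38.p6. For Gm46220, Gm36486 and Gm31015 that start is the 5′ end of the gene, whereas for Gm36303, Gm40446 and Gm46229 it is a start inside the gene, downstream of its 5′ end. XLOC_003712 held only 5 bases upstream of that start. XLOC_017773, XLOC_017208, XLOC_032793, XLOC_009694 and XLOC_003885 held 4117, 6768, 4279, 13848 and 14680 bases upstream of it. A window thus need not be the promoter of the RNA measured at its locus, and where that RNA starts was not tested. Capitals mark matches on either strand to AGATAA, bound by GATA factors, or to CCNCNCCC, bound by the KLF family. Both factor families act in red cells. The windows are chr10:38059091-38059390 on the plus strand for Gm46220 in XLOC_003712, chr17:29437530-29437829 on the minus strand for Gm36486 in XLOC_017773, chr17:50423904-50424203 on the plus strand for Gm31015 in XLOC_017208, chr5:91844868-91845167 on the minus strand for Gm36303 in XLOC_032793, chr12:77132197-77132496 on the minus strand for Gm40446 in XLOC_009694, and chr10:67311383-67311682 on the plus strand for Gm46229 in XLOC_003885. The first 3 belong to risen loci and the last 3 to fallen loci.
Gm46220: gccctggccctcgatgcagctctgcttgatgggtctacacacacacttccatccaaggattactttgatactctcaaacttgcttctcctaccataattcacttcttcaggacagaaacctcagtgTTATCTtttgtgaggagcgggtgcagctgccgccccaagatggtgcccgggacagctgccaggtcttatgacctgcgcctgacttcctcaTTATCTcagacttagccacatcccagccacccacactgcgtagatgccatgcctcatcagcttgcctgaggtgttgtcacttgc
Gm36486: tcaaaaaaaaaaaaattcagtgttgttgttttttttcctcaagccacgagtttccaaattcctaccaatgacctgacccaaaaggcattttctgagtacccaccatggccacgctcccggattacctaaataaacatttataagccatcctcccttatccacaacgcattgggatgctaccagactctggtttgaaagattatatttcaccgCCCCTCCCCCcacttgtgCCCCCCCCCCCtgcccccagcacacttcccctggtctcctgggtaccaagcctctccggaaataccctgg
Gm31015: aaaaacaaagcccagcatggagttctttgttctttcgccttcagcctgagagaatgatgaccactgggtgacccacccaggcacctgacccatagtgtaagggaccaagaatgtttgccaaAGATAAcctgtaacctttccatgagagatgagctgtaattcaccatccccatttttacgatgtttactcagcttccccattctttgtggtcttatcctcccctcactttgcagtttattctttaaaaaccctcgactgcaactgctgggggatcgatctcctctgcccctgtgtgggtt
Gm36303: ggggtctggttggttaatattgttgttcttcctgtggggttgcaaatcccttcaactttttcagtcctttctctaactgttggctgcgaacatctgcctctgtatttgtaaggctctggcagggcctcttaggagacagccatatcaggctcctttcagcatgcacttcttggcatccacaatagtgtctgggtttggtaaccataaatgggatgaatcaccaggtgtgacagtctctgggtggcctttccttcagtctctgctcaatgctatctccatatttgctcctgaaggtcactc
Gm40446: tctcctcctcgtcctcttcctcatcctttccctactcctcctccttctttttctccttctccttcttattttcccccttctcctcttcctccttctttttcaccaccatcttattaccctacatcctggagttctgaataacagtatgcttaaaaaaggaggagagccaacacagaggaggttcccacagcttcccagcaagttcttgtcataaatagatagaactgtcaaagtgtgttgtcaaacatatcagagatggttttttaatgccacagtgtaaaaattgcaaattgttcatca
Gm46229: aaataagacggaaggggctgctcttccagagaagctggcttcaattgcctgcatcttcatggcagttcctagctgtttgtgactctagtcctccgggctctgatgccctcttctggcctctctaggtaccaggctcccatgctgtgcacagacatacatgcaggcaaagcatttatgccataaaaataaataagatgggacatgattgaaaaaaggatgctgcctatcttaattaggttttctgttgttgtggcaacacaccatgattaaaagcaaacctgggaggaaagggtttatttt

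The window of Gm46220 held 2 matches to AGATAA and that of Gm31015 held 1. The window of Gm36486 held 6 matches to CCNCNCCC, which overlap one another in 2 runs of C. The windows of Gm36303, Gm40446 and Gm46229, in fallen loci, held no match to either motif. Since these are internal starts and the others are 5′ ends, the windows of risen and fallen loci are not alike in position and were not compared. Among all 32851 RefSeq promoter windows of the same length, 11.2% held AGATAA and 49.5% held CCNCNCCC, so a match in 1 window is common by itself. GC content ran from 41.7% for Gm40446 to 53.0% for Gm46220.

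The loci with these windows were chosen among those whose groups did not overlap, so in the risen ones both induced samples lay above both uninduced samples. XLOC_003712 (chromosome 10, 38059336 to 38063356) stood at 2.65 and 4.21 FPKM in uninduced replicates 1 and 2 and at 14.46 and 25.15 FPKM in induced replicates 1 and 2, a rise of 2.21 ± 0.35 on the log2 scale (SE, n = 2 per group; limma adjusted p = 0.0183). It nearly coincided with the RefSeq gene, which runs from 38059341 to 38063357. XLOC_017773 (chromosome 17, 29436464 to 29441696), 20.2 kb upstream of the row for Pim1, a serine/threonine kinase, stood at 0.13 and 1.03 FPKM uninduced and 3.62 and 6.76 FPKM induced, and XLOC_017208 (chromosome 17, 50417386 to 50426781) at 0 and 0.54 FPKM uninduced and 2.03 and 5.29 FPKM induced. Their adjusted p-values by limma were 0.0278 and 0.0384, and neither passed with a pseudocount of 0.1. XLOC_017208 reached 1 FPKM in the induced samples alone, which fixed its direction. The fallen locus XLOC_003885 (chromosome 10, 67296953 to 67313689) went from 3.08 and 3.40 FPKM to 0 and 1.00 FPKM, with adjusted p = 0.0372 by limma, and it also failed with a pseudocount of 0.1. XLOC_032793 and XLOC_009694 are given with the largest falls.

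The library labels were checked first on red cell genes. All 8 erythroid markers (Gata1, Klf1, Tal1, Epor, Tfrc, Alas2, Hba-a1 and Hbb-bs) were at 1 FPKM or more. Their summed level was 1457 and 1747 FPKM uninduced against 58976 and 112324 FPKM induced. Most of the induced sums came from Hba-a1, at 40300.5 and 67689 FPKM, and Hbb-bs, at 15799.8 and 39766.6 FPKM. Gata1 and Epor did not pass (limma adjusted p = 0.138 and 0.203), while the other markers of this list rose past the threshold. None of 4 B cell, 4 T cell and 4 fibroblast markers reached 1 FPKM in 2 samples, with highest values of 0.24, 0.6 and 0.16 FPKM, and among 4 macrophage markers Cd68 did, at 7.09 and 4.68 FPKM uninduced and 1.72 and 0.67 FPKM induced, with the other 3 at 0.38 FPKM or less. The test across the table covered 12890 rows at 1 FPKM in at least 2 samples. The sources used here give no sequencing depth, so no counting interval can be set on these values, and in bulk RNA fewer cells of a type and less RNA per cell cannot be told apart.

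Most of the 483 loci were weakly expressed. Their mean over the 4 samples had a median of 1.53 FPKM, against 11.9 FPKM in the tested rows with a symbol, and 321 loci were under 2 FPKM. At the other end, 70 loci reached 5 FPKM and 33 reached 10 FPKM, up to 144 FPKM. All loci together summed to 1638 and 1949 FPKM in uninduced and 2091 and 2291 FPKM in induced samples, which was 0.155%, 0.147%, 0.168% and 0.208% of the table. Both induced sums lay above both uninduced ones. The number of loci at 1 FPKM or more was 293 and 326 uninduced and 362 and 395 induced, and 25 loci were listed at 0 in at least 1 sample. Reaching 1 FPKM was also the rule that chose the loci. The induced samples alone met it in 115 loci and the uninduced samples alone in 57, so these counts partly restate that choice.

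Spans had a median of 2501 bp, with quartiles of 1412 and 9692 bp and a longest value of 416 kb. A span covers everything the assembler bundled and is no transcript length. The 483 loci lay on 435 distinct spans, since 87 loci shared a span with another locus of the set, on 39 spans with up to 4 loci each. The table has no strand, so rows that share a span cannot be placed within it.

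More of the loci rose than fell. By limma at an adjusted p of 0.05 over the whole table, 169 of 483 loci passed (35.0%), against 26.2% of all rows tested. Of these 121 had risen (25.1%, with 11.5% over all rows) and 48 had fallen (9.94%, with 14.7% over all rows). At least 2-fold on the log2(FPKM + 1) scale were 101 of the rises and 41 of the falls. The share of such 2-fold calls over all rows is not given here. The balance over all rows depended on scaling, with 1478 risen and 1899 fallen as deposited, 1819 and 1692 under quantile scaling, 1528 and 1516 when scaled to sums without globins and the 10 most abundant rows, and 1348 and 2060 under median-of-ratios scaling. Under the 3 other scalings, in the same order, the loci split into 137 risen and 41 fallen, 125 and 43, and 116 and 49. Groups did not overlap in 333 loci (68.9%), close to the 70.8% of all rows. The median log2 change was 0.28 in the loci and 0.03 in all rows.

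The FPKM rule fixes the direction of loci that reached 1 FPKM in both samples of a single group and not in the other group's samples, so these were counted apart. In 115 loci the rule was met by the induced samples alone, and 72 of them passed (62.6%, with 56.2% over all rows chosen so). It was met by the uninduced samples alone in 57 loci, of which 33 passed (57.9%, with 68.8% over all rows chosen so). The remaining 311 loci reached 1 FPKM in at least 1 sample of each group, and there 49 rose (15.8%, with 10.3% over all such rows) and 15 fell (4.82%, with 12.6%). In the 158 loci at 1 FPKM or more in all 4 samples, 33 rose (20.9%, with 10.6% over all such rows) and 11 fell (6.96%, with 12.8%), with a median log2 change of 0.18 against 0.04. The excess of rises over falls among these loci was thus present where every sample held signal, and whether it is particular to them was not tested.

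Each count rests on all 4 libraries. Without uninduced replicate 1 or uninduced replicate 2 limma called 0 loci, with 233 and 205 at an unadjusted p under 0.05, without induced replicate 1 it called 20, without induced replicate 2 it called 1, and without the filter on low values it called 2.

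**Figure D1:**
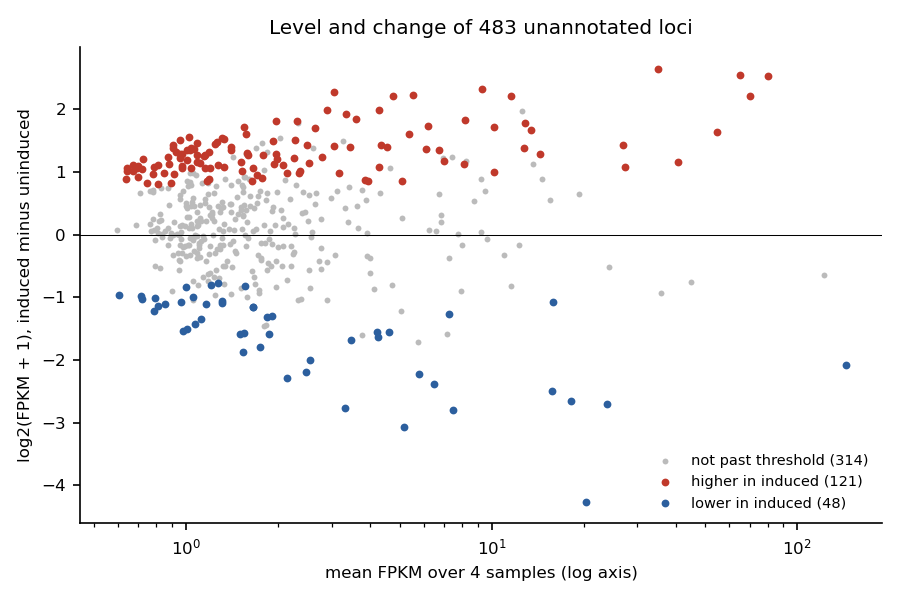
Mean FPKM of the 483 loci over 4 samples (horizontal, log axis) against the difference of group means of log2(FPKM + 1), induced minus uninduced (vertical). Each point is a locus, coloured by the limma call; 121 are higher in induced samples, 48 lower and 314 not past the threshold, and most points lie near 1 to 2 FPKM.

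Shorter rows without a symbol showed the opposite balance under the same FPKM rule. Among 625 rows of 400 bp to under 1000 bp, 78 rose (12.5%) and 151 fell (24.2%), and among 990 rows under 400 bp, 74 rose (7.47%) and 274 fell (27.7%). Rows with a symbol lay between, with 11.2% risen and 13.2% fallen. The share that rose was therefore highest in the longest class of rows without a symbol and the share that fell was highest in the shortest. These are counts side by side and the difference between length classes was not tested. They include rows whose direction the FPKM rule fixed. In the longest class 15.8% rose and 4.82% fell among loci at 1 FPKM in at least 1 sample of each group. The shorter classes were not split in this way.

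Among the loci that rose most, 4 rows stood together on 5.79 kb of chromosome 4, 7.53 kb downstream of the row for Map3k7, a kinase of the TGF-beta and NF-kappa-B pathways. XLOC_029140 (32030997 to 32032430) stood at 26.89 and 20.81 FPKM uninduced and 140.73 and 91.09 FPKM induced. XLOC_029141 (32032613 to 32034122) stood at 31.86 and 16.03 FPKM against 144.41 and 127.87 FPKM. XLOC_029142 (32035184 to 32036783) stood at 7.76 and 9.65 FPKM against 46.93 and 75.46 FPKM. XLOC_027594, on the same span as XLOC_029142, stood at 1.87 and 3.01 FPKM against 19.14 and 13.32 FPKM. Every induced value was above every uninduced value in each of these rows, which the choice of loci required. The rises were 2.21 ± 0.29, 2.53 ± 0.35, 2.65 ± 0.29 and 2.32 ± 0.29 on the log2 scale (SE), with adjusted p from 0.0128 to 0.0152 by limma. Map3k7 itself was at 16.93 and 10.06 FPKM uninduced and 22.66 and 18.48 FPKM induced, a log2 difference of 0.61 that did not pass (limma adjusted p = 0.182). The stretch overlapped no gene of GENCODE or RefSeq.

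XLOC_041060 (chromosome 8, 89367364 to 89368503) was the most isolated of the 8 loci that rose most, 180 kb from the row for the predicted gene Gm5356, which was listed at 0 in every sample. It stood at 14.46 and 22.40 FPKM uninduced and 93.62 and 128.81 FPKM induced, a rise of 2.54 ± 0.29 (limma adjusted p = 0.0128). On chromosome X, XLOC_045923 (110220461 to 110222782) stood at 0.96 and 1.68 FPKM against 10.46 and 9.11 FPKM, a rise of 2.23 ± 0.25 (limma adjusted p = 0.0128), 150 kb from the predicted gene Gm7134. The groups were apart in both loci, as the choice of the loci that rose most required. A neighbour on the same chromosome X stretch, XLOC_045930 (110233635 to 110282764), stood at 4.09 and 6.50 FPKM against 18.20 and 22.60 FPKM.

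The other strong rises shared the span of a gene. XLOC_014121 (chromosome 15, 78282517 to 78351000) stood at 0.28 and 0.50 FPKM uninduced and 5.89 and 5.58 FPKM induced, a rise of 2.28 ± 0.21 (limma adjusted p = 0.0106). Its span is that of the row for Csf2rb, the shared beta chain of the receptors for interleukin-3, interleukin-5 and GM-CSF, and Mir7676-2, which went from 49.67 and 48.91 FPKM to 263.40 and 505.69 FPKM. XLOC_014723 (chromosome 15, 67102875 to 67176929) stood at 1.12 and 0.82 FPKM against 5.73 and 11.39 FPKM, a rise of 2.22 ± 0.35 (limma adjusted p = 0.0183), on the span of St3gal1, a sialyltransferase at 4.59 and 3.92 FPKM against 14.85 and 24.56 FPKM. In both places the named row and the row without a name rose together, with no overlap between groups. For the rows without a name that separation was required by their choice. XLOC_014121 also reached 1 FPKM in the induced samples alone, which fixed its direction. Because spans coincide and strand is missing, signal of the gene and signal of the unnamed row cannot be told apart by position.

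**Figure D2:**
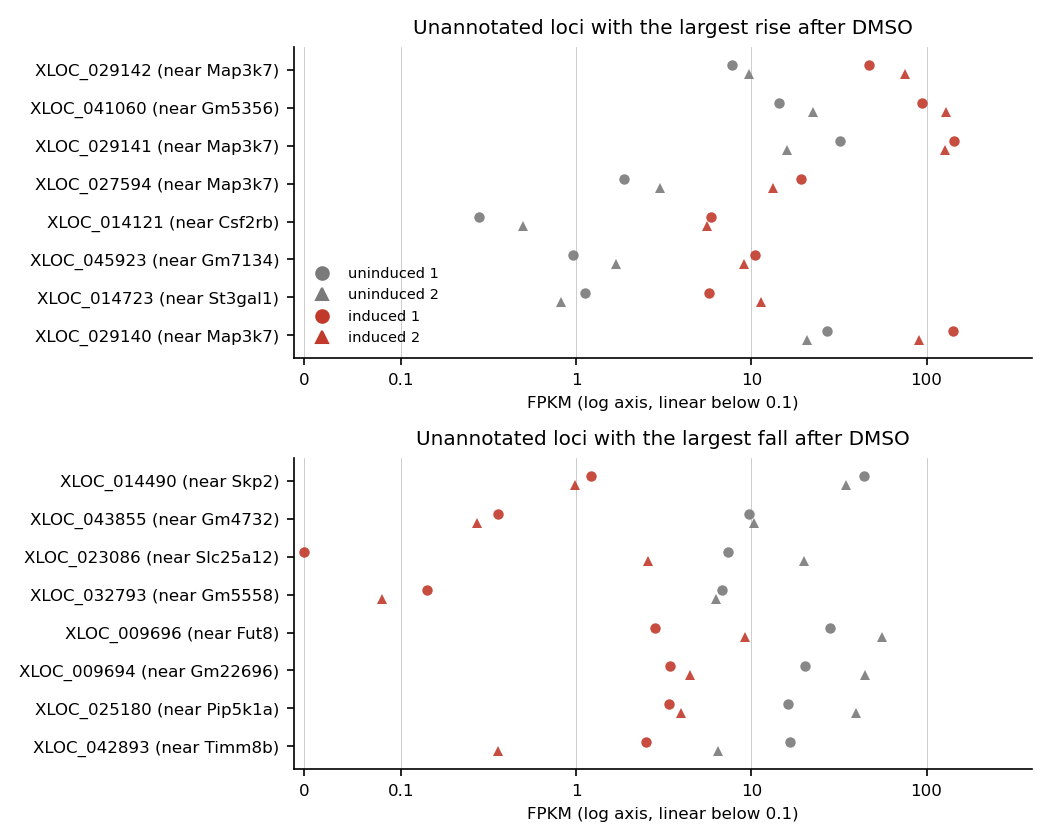
FPKM of the 8 loci with the largest rise (upper panel) and the 8 with the largest fall (lower panel) in each sample, on a log axis that is linear below 0.1 FPKM. Grey marks uninduced and red marks induced samples, circles replicate 1 and triangles replicate 2. The groups are apart in every row shown, as the choice of these rows required.

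The largest fall of all loci was at XLOC_014490 (chromosome 15, 9215730 to 9226530). It stood at 44.22 and 34.91 FPKM uninduced and at 1.22 and 0.98 FPKM induced, a log2 change of -4.26 ± 0.23 (SE; limma adjusted p = 0.00344). It lay 16.3 kb upstream of the row for Skp2, a subunit of a ubiquitin ligase that degrades cell cycle inhibitors, and overlapped no gene of GENCODE or RefSeq. Skp2 was at 30.65 and 21.87 FPKM uninduced and 15.36 and 9.78 FPKM induced, a log2 difference of -1.02 (limma adjusted p = 0.0627), which did not pass. The difference at the unnamed locus was thus the larger of the pair.

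XLOC_043855 (chromosome X, 24153488 to 24162207) stood at 9.74 and 10.32 FPKM uninduced and 0.36 and 0.27 FPKM induced (log2 change -3.07 ± 0.20, limma adjusted p = 0.00601). XLOC_032793 (chromosome 5, 91830348 to 91849196), which overlaps the RefSeq long noncoding RNA Gm36303 shown above, stood at 6.82 and 6.27 FPKM against 0.14 and 0.08 FPKM (-2.76 ± 0.20, limma adjusted p = 0.00705). These 2 loci had close replicates in both groups. They were also the 2 that passed even without the filter on low values, where every row of the table was tested. Both reached 1 FPKM in the uninduced samples alone, so their fall was fixed by how they were chosen.

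Both XLOC_009694 (chromosome 12, 77129073 to 77146094) and XLOC_009696 (chromosome 12, 77174537 to 77191760) lay in the RefSeq long noncoding RNA Gm40446, and they fell alike. The first stood at 20.36 and 44.25 FPKM uninduced and 3.44 and 4.44 FPKM induced, and the second at 28.00 and 55.64 FPKM against 2.80 and 9.20 FPKM. In each, uninduced replicate 2 was the highest sample. Both induced samples lay below both uninduced samples, as the choice of the loci that fell most required. The log2 changes were -2.66 ± 0.40 and -2.70 ± 0.57 (limma adjusted p = 0.0171 and 0.0299). Fut8, the fucosyltransferase gene 46.3 kb from XLOC_009696, was at 21.43 and 19.18 FPKM uninduced and 12.49 and 14.40 FPKM induced, and its log2 difference of -0.56 did not pass (limma adjusted p = 0.0941).

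XLOC_025180 (chromosome 3, 95054389 to 95055910), 2.62 kb downstream of Pip5k1a, a phosphoinositide kinase, stood at 16.21 and 39.34 FPKM uninduced and 3.37 and 3.94 FPKM induced (-2.50 ± 0.43, limma adjusted p = 0.0207). Pip5k1a differed by only 0.08 on the log2 scale. XLOC_023086 (chromosome 2, 71271063 to 71375784), on the span of the mitochondrial aspartate-glutamate carrier gene Slc25a12, stood at 7.34 and 20.04 FPKM against 0 and 2.58 FPKM (-2.81 ± 0.74, limma adjusted p = 0.0485). XLOC_042893 (chromosome 9, 50627079 to 50629380), 2.08 kb downstream of Timm8b, a mitochondrial import chaperone gene, stood at 16.64 and 6.46 FPKM against 2.51 and 0.36 FPKM (-2.39 ± 0.61, limma adjusted p = 0.0456). The replicates of these last 2 loci lay far apart, and neither passed with a pseudocount of 0.1. XLOC_042893 also missed the threshold after scaling to sums without globins and the 10 most abundant rows (limma adjusted p = 0.0541).

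The 2 highest mean levels belonged to a locus that fell and a locus that did not pass. XLOC_041448 (chromosome 9, 21313402 to 21315069) had the highest mean, with 186.09 and 275.35 FPKM uninduced and 78.37 and 35.65 FPKM induced, a log2 change of -2.08 ± 0.43 (limma adjusted p = 0.0287). It lay 1.07 kb upstream of Ap1m2, an adaptor subunit gene of epithelial cells that itself was at 1.91 and 2.94 FPKM uninduced and 0.92 and 1.38 FPKM induced. XLOC_017899 (chromosome 17, 34996797 to 35000436) stood at 132.03 and 166.82 FPKM against 95.10 and 93.78 FPKM, a difference of -0.65 ± 0.21 that did not pass (limma adjusted p = 0.0768), although both induced samples were lower. It lay 550 bp upstream of Vars, the valyl-tRNA synthetase gene, which fell by 1.24 on the log2 scale (limma adjusted p = 0.0223), and over the RefSeq gene D17H6S56E-5. The next 3 by mean level were the chromosome 4 rows XLOC_029141 and XLOC_029140 and the chromosome 8 locus XLOC_041060.

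The longest spans told little about single transcripts. XLOC_018100 on chromosome 17 covered 416 kb and many genes, Mrpl2 among them, and stood at 0.56 and 1.52 FPKM uninduced and 0.64 and 2.21 FPKM induced, with overlapping groups. XLOC_020318, on the 134 kb span of the exocyst gene Exoc6 on chromosome 19, stood at 1.95 and 1.66 FPKM against 0.76 and 0.45 FPKM (-0.81 ± 0.22, limma adjusted p = 0.0493). It reached 1 FPKM in the uninduced samples alone, which fixed its direction. XLOC_019761, on the 115 kb span of Lcor on chromosome 19, stood at 1.16 and 0.69 FPKM against 4.69 and 2.49 FPKM (1.22 ± 0.32, limma adjusted p = 0.0463). Both calls were marginal, since quantile scaling moved the first to an adjusted p of 0.0697 and median-of-ratios scaling the second to 0.0541 by limma, and a pseudocount of 0.1 ended both.

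The widest gaps between replicates were at XLOC_033919 beside Rny1, the gene of a small cytoplasmic Y RNA, at XLOC_039087 and at XLOC_024624. The first was listed at 0 and at 5.92 FPKM in the uninduced samples and at 0 and 1.02 FPKM in the induced samples. An exact 0 can be a failed estimate. XLOC_024624 stood at 4.26 and 19.51 FPKM uninduced against 2.06 and 2.87 FPKM induced, and none of the 3 passed.

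Of the members' neighbours, genes of red cell maturation were given special attention. From a list of erythroid genes, Hbb-y, Fech and Gypc were the nearest row to 4 loci, and no locus had its nearest row in a list of progenitor genes such as Myb and Kit. XLOC_037093 (chromosome 7, 103861121 to 103862367) lay 7.88 kb upstream of Hbb-y, the embryonic beta-like globin gene. The beta-globin locus control region, a group of enhancers for the globin genes, is known to lie upstream of Hbb-y, and overlap with its elements was not examined. The locus stood at 0.15 and 0.22 FPKM uninduced and 1.80 and 2.88 FPKM induced, a rise of 1.48 ± 0.24 (limma adjusted p = 0.0192), and Hbb-y went from 0.37 and 0.09 FPKM to 4.09 and 2.93 FPKM. Induced samples were higher in both rows. On the same span, XLOC_039087 stood at 0.83, 0.65, 1.09 and 10.46 FPKM in the same order of samples, so that its difference rested on induced replicate 2 and did not pass (limma adjusted p = 0.211).

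XLOC_019210 (chromosome 18, 64453079 to 64454251) lay 2.30 kb downstream of the row for Fech, ferrochelatase, which inserts iron into haem. It stood at 0.03 and 0.15 FPKM uninduced and 1.14 and 1.24 FPKM induced (1.01 ± 0.19, limma adjusted p = 0.0248), while Fech went from 32.82 and 31.88 FPKM to 173.31 and 271.64 FPKM. XLOC_019003 (chromosome 18, 32524862 to 32525907) lay 2.41 kb downstream of Gypc, glycophorin C of the red cell membrane, and stood at 0.16 and 0.12 FPKM against 1.53 and 2.33 FPKM (1.35 ± 0.23, limma adjusted p = 0.0198), with Gypc at 21.60 and 28.10 FPKM against 91.35 and 152.54 FPKM. Each locus was apart between groups and stood far below its gene in every sample, on a scale per transcript length. These loci reached 1 FPKM in the induced samples alone, as did XLOC_037093, so their direction was fixed by how they were chosen.

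The Fech locus was 1 of 12 loci that lay wholly inside GENCODE exons, and these had a common place. In 10 of the 12 the exon belonged to the gene of the nearest row, the locus lay downstream of that row, and its whole span was annotated as untranslated region. The genes were Cep85l, D10Wsu102e, Mboat2, Lnpep, Pggt1b, Fech, Hspa4l, Igf1r, Acer3 and Cbl. In all 10 the log2 difference had the sign of the gene's own, with 7 higher and 3 lower in induced samples, and 2 of them, at Fech and Mboat2, passed. XLOC_008693 at Mboat2, an acyltransferase gene, stood at 1.61 and 2.01 FPKM uninduced and 4.37 and 4.72 FPKM induced (0.98 on the log2 scale, limma adjusted p = 0.0308). XLOC_036794 at Igf1r, the receptor of insulin-like growth factor 1, stood at 3.85 and 3.07 FPKM against 2.65 and 1.50 FPKM, lower in both induced samples but not past the threshold (limma adjusted p = 0.183), while Igf1r fell by 1.17 (limma adjusted p = 0.0306). For these 10 rows GENCODE M21 thus holds a gene where the table gave none.

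Across all loci, GENCODE placed 330 between genes, 139 over at least part of an exon and 13 inside introns, and 1 lay on a patch sequence that the reference lacks. Those over exons had a median of 15.5% of the span in exons, and 25 had 50% or more. Protein-coding genes were under 84 loci, long noncoding genes under 62, pseudogenes under 17 and small RNA genes under 14. Of the 330 between genes, 241 overlapped no RefSeq gene either, and 63 of these rose and 20 fell. The shares that rose were alike, with 25.5% between genes and 23.7% over exons. Among all rows tested 11.5% had risen and 14.7% had fallen. Loci whose direction the FPKM rule fixed are included in these counts and were not counted apart by place.

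The nearest row with a symbol overlapped 64 loci, lay within 1 kb of 104, at 1 to 5 kb from 92, at 5 to 20 kb from 108, at 20 to 100 kb from 89 and farther from 14, with a median of 3533 bp. The other 12 loci were on sequences without such a row. Loci upstream of that row numbered 202 and loci downstream 158, and strand was not assigned for 47. Within 1 kb the count was 66 upstream and 25 downstream, and at 1 to 5 kb it was 32 upstream and 47 downstream.

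The difference at a locus often had the sign of that at its nearest named row. That row was itself tested for 323 loci, and in 221 of these (68.4%) both differences had the same sign. Spearman's rho across loci was 0.55 (n = 323 loci, beside 250 distinct neighbours), given as a description since neighbours share libraries and sometimes spans. Agreement in sign was 46 of 61 where spans overlapped (rho 0.75), 60 of 95 within 1 kb (rho 0.43), 46 of 72 at 1 to 5 kb (rho 0.43), 39 of 56 at 5 to 20 kb (rho 0.45) and 29 of 35 at 20 to 100 kb (rho 0.77). The last class holds 6 loci of 1 stretch on chromosome 3 that is described below. For comparison, 3504 of 6151 rows with a symbol (57.0%) had the sign of their nearest other row with a symbol, with rho 0.20, and that difference between kinds of row was not tested.

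**Figure D3:**
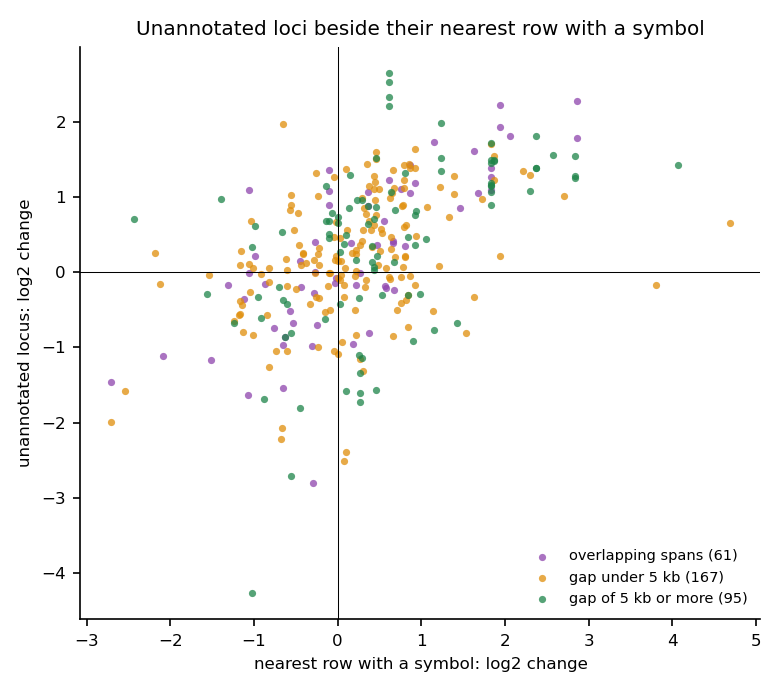
Log2 difference, induced minus uninduced, of the nearest row with a symbol (horizontal) against that of the unannotated locus (vertical), for 323 loci whose neighbour was tested. Colours give 61 overlapping pairs, 167 with a gap under 5 kb and 95 with a wider gap; 221 of the 323 points lie in the lower left or upper right quadrant.

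By calls, 84 risen loci had a tested neighbour, which had risen in 40, fallen in 1 and not passed in 43. Of 31 fallen loci with a tested neighbour it had fallen in 5, risen in 2 and not passed in 24. Of 208 loci not past the threshold it had risen in 19, fallen in 26 and not passed in 163. Over all rows tested 11.5% had risen and 14.7% had fallen. Fallen neighbours were thus about as frequent beside fallen loci as in the whole table, and no difference was tested. The 40 risen pairs involved 23 distinct neighbours, and 12 of the 40 were beside Olfr289-ps1. The following examples were picked among the others after their values were seen. XLOC_027911 on the span of Alad, the gene of an early enzyme of haem synthesis, stood at 0.50 and 0.44 FPKM uninduced and 3.89 and 4.43 FPKM induced. XLOC_042280, 4.19 kb downstream of Cish, a feedback inhibitor of cytokine receptors, stood at 0.06 and 0.19 FPKM against 1.31 and 2.26 FPKM. XLOC_007206, 9.41 kb upstream of Cpeb4, an RNA-binding regulator of translation, stood at 0 and 0.04 FPKM against 1.24 and 2.36 FPKM. XLOC_009492 and XLOC_009493, 35.2 kb upstream of the protein kinase A subunit gene Prkar2b, and XLOC_017208 and XLOC_017211, upstream of Plcl2, also rose beside a risen gene, while XLOC_009494, on the span of the first pair, did not pass (limma adjusted p = 0.0946). In all 7 risen loci of these examples the induced samples alone reached 1 FPKM, so the choice of loci fixed their direction.

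Pairs that fell together were beside Ccnb1ip1, Gm26834, Arap3, the shared row of Gm25951 and Rcc2, and the shared row of Cdc37 and Tyk2. XLOC_030249, 387 bp from the row of Rcc2, a regulator of chromosome condensation, stood at 1.78 and 3.92 FPKM uninduced and 0.27 and 0.21 FPKM induced. It reached 1 FPKM in the uninduced samples alone, which fixed its direction. XLOC_042608, on the span of Cdc37, a co-chaperone of kinases, and Tyk2, a Janus kinase, stood at 6.28 and 7.62 FPKM against 1.28 and 1.85 FPKM (-1.64 ± 0.24, limma adjusted p = 0.0159). In 3 pairs the calls were opposite. XLOC_003944 and XLOC_035635 fell by 0.77 and 0.81 beside Gm10941 and 1700063H04Rik, which had risen. XLOC_037843 rose by 1.1 on the span of the row of Ccdc9 and Inafm1, which had fallen by 1.05. XLOC_003944 reached 1 FPKM in the uninduced samples alone, which fixed its direction.

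The share of risen loci was larger in groups of nearby loci than among single loci, a difference that was not tested. Joining loci within 10 kb gave 363 groups, of which 286 held a single locus. Of single loci 14.7% had risen and 10.8% had fallen, against 11.5% and 14.7% of all rows tested. In groups of 2 it was 28 risen and 14 fallen of 108 loci, in groups of 3 it was 19 and 2 of 39, and in groups of 4 it was 17 and 1 of 24. Groups of 4 or more numbered 10 and held 50 loci. Over the whole set the FPKM rule fixed the direction of 72 of the 121 risen and 33 of the 48 fallen loci. These were not counted apart by group size, so the shares partly restate how loci were chosen. Loci of 1 group may be pieces of 1 transcript, so they are not independent, and counted by distinct span the called loci lay on 150 spans, 104 with a risen and 46 with a fallen locus.

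On chromosome 3, 2 neighbouring groups of 6 loci shared Olfr289-ps1 as their nearest named row and were read as 1 stretch of 49.7 kb (6750754 to 6800493) with 12 loci on 10 spans, starting on the span of that gene, an olfactory receptor pseudogene. All 12 had risen, by 0.89 to 1.72 on the log2 scale. Summed over the 12 loci the level was 9.10 and 7.59 FPKM uninduced and 44.25 and 40.27 FPKM induced, and Olfr289-ps1 went from 3.41 and 2.52 FPKM to 15.41 and 11.06 FPKM. The strongest signal was at the far end, where XLOC_025923 (6799230 to 6800493) stood at 3.91 and 4.48 FPKM against 14.93 and 17.34 FPKM. Groups did not overlap at any of the 12, and 10 of them reached 1 FPKM in the induced samples alone. The exceptions were XLOC_025923 and XLOC_025922.

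On chromosome X, 4 loci within 62.3 kb (110220461 to 110282764) summed to 5.26 and 9.94 FPKM uninduced and 32.74 and 34.77 FPKM induced, and 3 of the 4 had risen. On chromosome 5, 4 loci on a single span of 30.3 kb (64391582 to 64421881) had all risen, with sums of 6.60 and 5.25 FPKM against 20.35 and 16.97 FPKM. A second span of chromosome 5, 51.0 kb long (136625386 to 136676379) and upstream of the myosin light chain gene Myl10, also held 4 risen loci, with sums of 3.58 and 3.96 FPKM against 14.22 and 17.78 FPKM. On that span the highest values of a single locus were 3.03 and 3.64 FPKM uninduced, which was most of the uninduced sums. In all these stretches the induced sums exceeded the uninduced ones. Loci that reached 1 FPKM in the induced samples alone had their direction fixed by how they were chosen, and they were not counted apart here. The 4 loci around Gm25890 on chromosome 3 (96478041 to 96497076) included XLOC_026795, at 28.65 and 22.78 FPKM against 66.40 and 100.78 FPKM (1.64 ± 0.28, limma adjusted p = 0.0198), and XLOC_026794, which rose by 1.39, while the other 2 did not pass.

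Grouping did not always go with a rise. The 4 loci between the desaturase genes Scd3 and Scd2 on chromosome 19 (44267188 to 44285955) summed to 7.36 and 9.14 FPKM uninduced and 3.31 and 8.10 FPKM induced, and 1 of them had fallen. The 9 loci on the unplaced scaffold JH584304.1 summed to 17.69 and 18.90 FPKM against 24.14 and 24.19 FPKM, and none passed by limma, with adjusted p of 0.0637 at the lowest and 1 at an unadjusted p under 0.05. Of these 9, 6 had both induced samples above both uninduced samples. The same held for 45.8% of the 483 loci and for 36.1% of all rows tested.

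**Figure D4:**
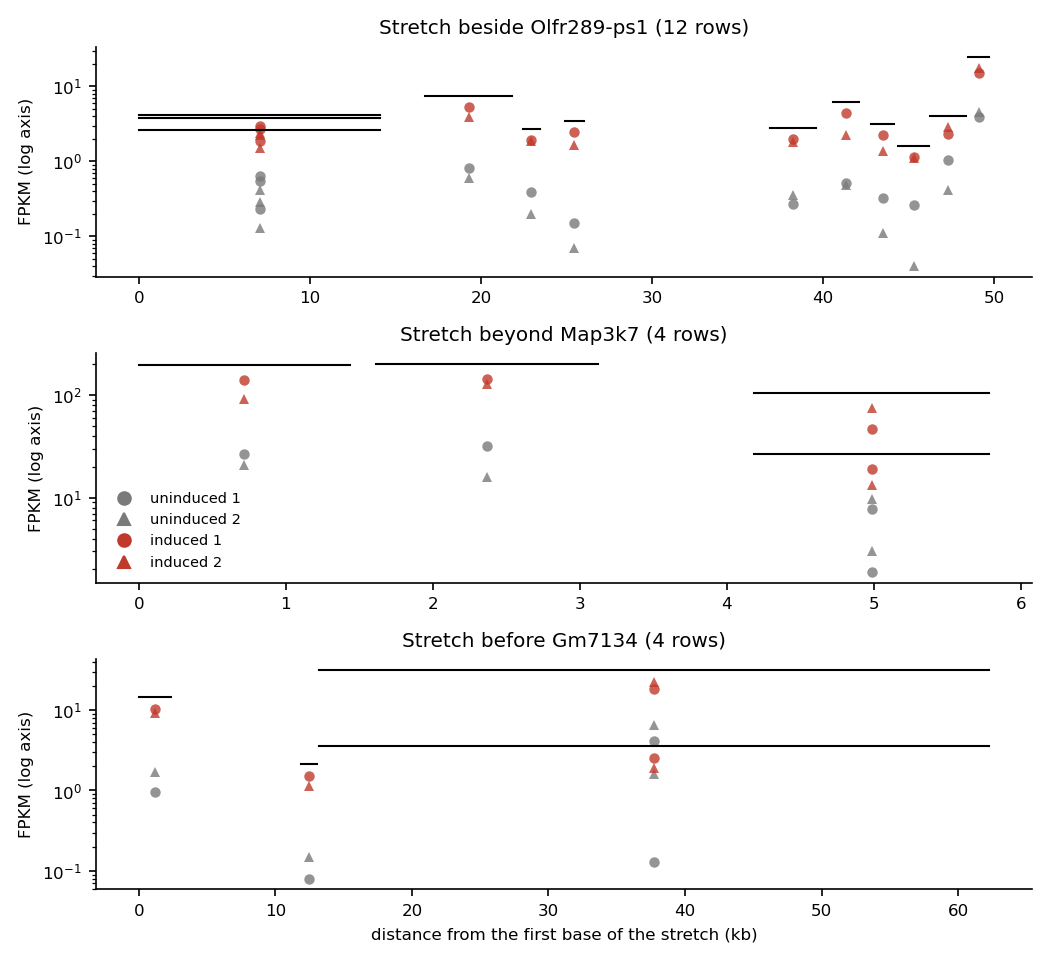
FPKM per sample (log axis) of the loci in 3 stretches, against distance in kb from the first base of the stretch. Symbols sit at the middle of each span, black bars above them show its extent, grey marks uninduced and red induced samples; all 12 loci beside Olfr289-ps1, all 4 beyond Map3k7 and 3 of 4 before Gm7134 had risen.

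By chromosome, the most loci were on chromosome 5 (49), 3 (45) and 7 (38), followed by 19 and 12 (30 each). Per 100 tested rows with a symbol, chromosome 3 had 7.89, chromosome 12 had 7.85, chromosome 19 had 7.81 and chromosome 5 had 6.72, while chromosome 4 had 2.28 and chromosome 8 had 2.37. The ratio was highest on chromosome Y, at 66.7, but it rests there on 4 loci and 6 rows with a symbol. Chromosome 3 had 20 risen and 2 fallen loci, and 12 of the 20 were the Olfr289-ps1 stretch. Chromosome 9 had 2 risen and 6 fallen of 24 loci, and chromosome 19 had 2 risen and 4 fallen of 30. Over all rows tested, on all chromosomes together, 11.5% had risen and 14.7% had fallen. Of the chromosome Y loci XLOC_047553 fell, from 4.24 and 2.09 FPKM to 0.92 and 0.40 FPKM (limma adjusted p = 0.0479). It reached 1 FPKM in the uninduced samples alone, which fixed its direction. The counts per chromosome depend on groups of nearby loci and were not tested. They include loci whose direction the FPKM rule fixed. Shares over all rows of the same chromosome are not given, so no chromosome can be said to differ from its other rows.

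**Figure D5:**
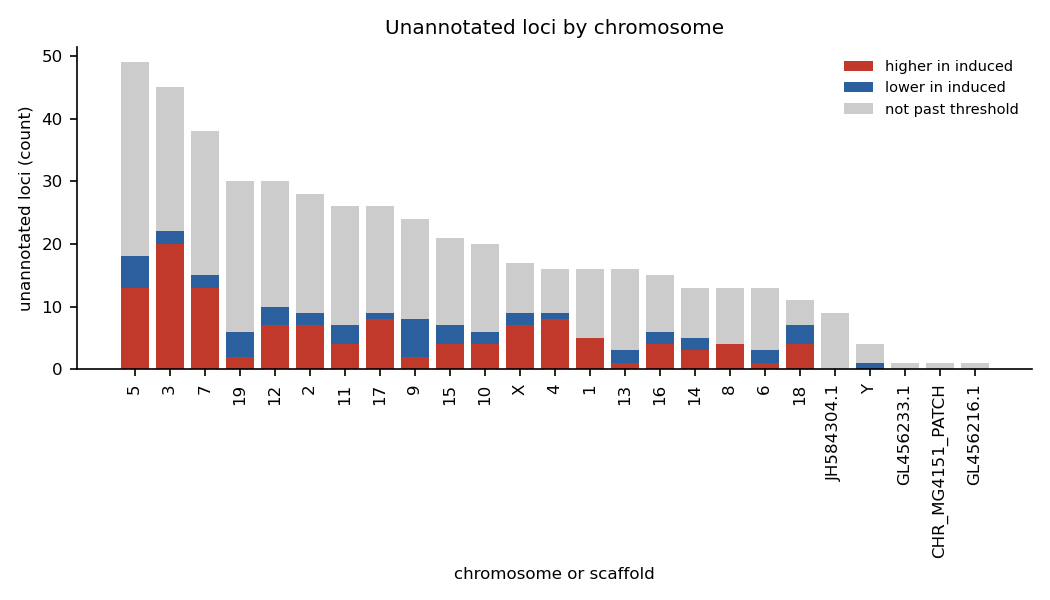
Number of unannotated loci per chromosome or scaffold, in order of number, split by limma call into higher in induced samples (red), lower (blue) and not past the threshold (grey). Chromosome 5 has 49 loci and chromosome 3 has 45, of which 20 are higher and 2 lower in induced samples.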

How the data were processed

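RNA was extracted with Trizol and depleted of ribosomal RNA with Ribo-Zero, per the labels' protocols. TopHat2 and GRCm38 are named in the submitters' processing notes. Versions, quantifier, annotation, strandedness and depth are not given in the sources used here. In the deposited table each sample has 1 column of FPKM, which the authors made. The column names are those of a Cufflinks tracking table, per the file headers. FPKM is relative to each library's total, so very abundant transcripts lower the values of others.

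Starts in the table were raised by 1. Of 39486 single symbols, 39449 (99.9%) overlapped the gene of that name in GENCODE M21, which supplied gene positions, exons and strand. RefSeq on GRCm38.p6 supplied further genes and promoter windows, none printed from chromosome 18. Rows that reached 1 FPKM in 2 samples or more were tested on log2(FPKM + 1) with limma 3.58.1 in R 4.3.3 (group only, trend, not robust) and Benjamini-Hochberg adjustment at 0.05 over all 12890 rows. This scale understates changes of low rows, and SEs are limma's moderated ones. The deposited values are no counts, so no count test was run. The fit was tested on simulated data.

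The nearest row with a symbol was that with the smallest gap between spans, ties going to the higher mean FPKM. Loci and lists were chosen with earlier results of these data known. Named loci were among loci past the threshold with separate groups the 8 that rose most and the 8 that fell most, the 5 with the highest mean, the 3 longest, the 3 with the widest replicate gap, and those whose nearest row was in a list of erythroid, progenitor or noncoding genes, and their neighbours. Further loci were chosen with their values in view, to describe promoters, stretches, exon matches, pairs of calls and chromosome Y. Alternatives were 3 other scalings, a pseudocount of 0.1, no filter, a filter at 5 FPKM, a replicate block, leaving out each sample, leaving out rows listed at 0, and stricter rules for the loci; 1 row per span and loci at 1 FPKM in both groups were added after seeing the data.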

Additional observations from a re-analysis of the deposited data

How the results depend on the processing

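The number of loci past the threshold, 169, depended most on the number of samples and on the filter on low values. Leaving out 1 sample gave 0 to 20 loci and 14 to 486 of all rows, against 3377. A lone sample is then assumed to vary like the other group. Without a filter on low values limma called 2 loci and 220 of 47935 rows. Far more near-empty rows entered that fit, and the cause of the lower count was not tested. Fewer loci were tested with a filter at 5 FPKM (49 of 81 called) or a span of 2000 bp or more (109 of 275). The same held for 1 FPKM in all 4 samples (44 of 158) or 1 FPKM in both groups (64 of 311). Among all rows, 2635 of 9061 were called at 5 FPKM. The share was 23.4% of all rows at 1 FPKM in all 4 samples and 22.9% of those at 1 FPKM in both groups. Quantile, median-of-ratios and globin-free scaling gave 178, 165 and 168, a pseudocount of 0.1 gave 142 and 1 row per span 144. Among all rows these scalings, in the same order, called 3511, 3408 and 3044, and the pseudocount of 0.1 called 3001. Scaling to sums without globins and the 10 most abundant rows moved the median log2 change of all rows from 0.03 to 0.11. The share of same-sign neighbours was 68.4%, 67.7% with any tested neighbour expressed at 1 FPKM taken as nearest, and 72.6% at gaps of 5000 bp or more.

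With the replicate number as a block 212 loci passed, and 4238 of all rows. Deviations of same-numbered samples correlated at r = 0.17 over 12890 rows, but 2 pairs cannot show that the numbers pair samples. Of 26 named loci past the threshold, 26 passed with the block, 19 with a pseudocount of 0.1 and 2 without a filter. XLOC_020318 missed it with globin-free sums (limma adjusted p = 0.0692). Of the named loci not past the threshold, 4 changed sign when 1 sample was left out. The log2 difference ran from -0.11 to 0.59 for XLOC_006361, from -0.18 to 0.23 for XLOC_007955, from -0.27 to 0.70 for XLOC_018100 and from -2.28 to 0.51 for XLOC_033919, and with median-of-ratios scaling XLOC_007955 was at -0.016. The cause was not tested. Depth was not given, which limits the reading of values near 1 FPKM.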

Other observations

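Beside the noncoding RNA gene Mir142hg, which hosts a microRNA of blood cells, 2 loci shared a span on chromosome 11 (87747583 to 87752323), 3.25 kb upstream. XLOC_006361 stood at 0.82 and 1.63 FPKM uninduced and 1.03 and 2.30 FPKM induced, and XLOC_007955 at 0.59 and 1.00 FPKM against 0.57 and 1.09 FPKM, with overlapping groups in both. Mir142hg was at 20.93 and 21.59 FPKM uninduced and 23.03 and 26.82 FPKM induced.

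Further loci with a mean over 25 FPKM lay away from the chromosome 4 stretch. XLOC_008538 (chromosome 11, 120353929 to 120355009) stood at 30.90 and 87.34 FPKM uninduced and 37.02 and 24.73 FPKM induced, with overlapping groups. XLOC_039424 (chromosome 7, 128605240 to 128606760), 4.57 kb upstream of the inositol phosphatase gene Inpp5f, stood at 20.74 and 28.72 FPKM against 43.99 and 69.92 FPKM (limma adjusted p = 0.0492). XLOC_027986 (chromosome 4, 78512237 to 78513715) stood at 17.70 and 16.63 FPKM against 34.95 and 40.26 FPKM (1.08 ± 0.19 on the log2 scale, limma adjusted p = 0.0212), and XLOC_027282 (chromosome 3, 138331418 to 138333918), 183 bp downstream of the alcohol dehydrogenase gene Adh6a, at 15.39 and 12.72 FPKM against 44.47 and 34.99 FPKM (1.43 ± 0.22, limma adjusted p = 0.0180).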
